A study of Mus musculus with 36 samples.

Results

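The 10 genes described here encode interleukin-6 (IL-6) family cytokines, the receptor chains through which they act and feedback inhibitors of the same pathway. They were chosen by name, from 53421 rows of the deposited count table: the ligands Il6, Lif, Il11 and Clcf1, the receptor chains Il6st, Lifr and Osmr, and the inhibitors Socs1, Socs3 and Cish. All 10 were present in both the table of counts and that of TPM (transcript abundance scaled to transcript length and to the library's total). They were measured by RNA-seq of polyA RNA in 36 libraries from 1 mouse cell line, chondrocytes of a fibroblastic kind with conditional immortalisation. Cells carried either a pool of non-targeting siRNA (NT) or a pool of siRNA against Ift88 (IFT88siRNA), a gene for a protein of ciliary intraflagellar transport, at 50 nM by the sample labels. Each was sampled without IL-1β (0 h) or 1, 2, 4, 8 or 24 h after 10 ng/ml of interleukin-1β (IL-1β), an inflammatory cytokine, with 3 libraries in each of the 12 conditions. All cells were wild type for Ift88, were transfected before confluence and began the time course 48 h later. There were no libraries without IL-1β at 1 to 24 h, so IL-1β and time in culture cannot be told apart.

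IL-6 family cytokines signal through receptor complexes that share the chain gp130, encoded by Il6st. Leukaemia inhibitory factor (Lif) pairs gp130 with the LIF receptor (Lifr), and oncostatin M pairs it with its own receptor (Osmr), whereas Il6 and Il11 first bind non-signalling receptors (Il6ra, Il11ra1). The complexes activate Janus kinases (JAK), which phosphorylate STAT transcription factors, chiefly STAT3. STATs in turn induce SOCS proteins: SOCS1 and SOCS3 inhibit JAKs and gp130 signalling, and CIS (Cish) is best known as a feedback inhibitor of STAT5. In joints, chondrocytes and fibroblasts release Il6 and Lif when stimulated by IL-1β, and both cytokines are known for their part in cartilage breakdown.

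Promoter windows of 4 members are shown: Il6 and Lif, which rose most at 2 and 4 h of IL-1β and were lower with IFT88siRNA, and Socs3 and Cish, inhibitors that rose with IL-1β and whose windows hold a STAT motif. RefSeq (GRCm38.p6) gave a window of 250 bases before to 50 bases after a RefSeq start for 9 of the 10 members (Clcf1 had no entry). Distances are counted from that start. For Lif, Socs3 and Cish it lay inside the gene as annotated by GENCODE, whose positions are given further below, and not at its first base. Capitals mark matches, on either strand, to an NF-κB core (GGANTTTCC), a STAT motif (TTCNNNGAA) or an AP-1 motif (TGANTCA). No match overlapped another.
Il6, chr5:30012864-30013163, plus strand: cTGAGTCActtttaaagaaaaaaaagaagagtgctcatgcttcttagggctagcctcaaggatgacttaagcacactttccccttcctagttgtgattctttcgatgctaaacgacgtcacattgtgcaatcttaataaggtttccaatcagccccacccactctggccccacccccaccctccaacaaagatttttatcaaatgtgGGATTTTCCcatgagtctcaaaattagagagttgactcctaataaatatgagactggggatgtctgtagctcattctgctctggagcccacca
Lif, chr11:4257318-4257617, plus strand: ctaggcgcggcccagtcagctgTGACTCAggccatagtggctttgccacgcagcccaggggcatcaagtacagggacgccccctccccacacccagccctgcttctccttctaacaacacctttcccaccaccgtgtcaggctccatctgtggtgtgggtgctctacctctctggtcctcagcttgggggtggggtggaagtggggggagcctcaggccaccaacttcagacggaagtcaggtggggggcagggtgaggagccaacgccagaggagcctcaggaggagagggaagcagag
Socs3, chr11:117969317-117969616, minus strand: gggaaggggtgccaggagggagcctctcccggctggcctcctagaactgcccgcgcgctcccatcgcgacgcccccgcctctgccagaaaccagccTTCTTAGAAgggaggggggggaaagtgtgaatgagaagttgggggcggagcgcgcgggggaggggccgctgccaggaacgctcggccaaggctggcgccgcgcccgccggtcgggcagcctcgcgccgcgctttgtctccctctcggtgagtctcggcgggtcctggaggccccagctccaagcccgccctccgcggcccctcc
Cish, chr9:107296409-107296708, plus strand: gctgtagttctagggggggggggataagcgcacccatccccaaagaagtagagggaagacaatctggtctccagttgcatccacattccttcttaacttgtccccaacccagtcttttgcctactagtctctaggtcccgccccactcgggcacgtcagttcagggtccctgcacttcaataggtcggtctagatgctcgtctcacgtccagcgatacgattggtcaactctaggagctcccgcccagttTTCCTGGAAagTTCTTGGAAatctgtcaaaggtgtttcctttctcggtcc

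The Il6 window held the NF-κB core with its first base 43 bases before the start and an AP-1 motif 249 bases before it. The Lif window held an AP-1 motif 228 bases before the start. The Socs3 window held a STAT motif 154 bases before the start, and the Cish window held 2, at bases 1 and 12 of the transcript. Of the windows not printed, the second of 2 Il11 windows held an AP-1 motif and so did that of Osmr, while those of Il6st, Lifr (2 windows) and Socs1 held none of the 3. Over all 32851 promoter windows of the same length, the NF-κB core was present in 1.25%, the STAT motif in 8.3% and the AP-1 motif in 7.81%. These are matches of letters and not measured binding sites.

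Library depth ranged from 19337022 to 38304127 counts. No pair of replicates was close enough to be 1 library deposited more than once. Ift88 fell with its siRNA at every time point, to between 22.9% and 36.1% of NT. At 8 h its level was least even, at 1.53, 1.59 and 3.0 CPM (counts scaled to the library's total) in the IFT88siRNA libraries against 6.34 to 7.45 in NT. All 10 fibroblast markers examined had a mean of at least 1 CPM, against 6 of 10 chondrocyte markers (Acan averaged 0.204 CPM), 3 of 11 leukocyte markers (Cd14, Cd68 and Lyz2) and 0 of 5 endothelial markers. Of the defining leukocyte genes, Tyrobp and Cd3e were at 0 in every library and Ptprc reached 5 counts in a library at most. The summed leukocyte markers ranged from 14.0 to 43.2 CPM in NT and from 14.7 to 36.6 CPM in IFT88siRNA. In bulk RNA, fewer cells expressing a gene and less of its RNA per cell cannot be told apart.

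How the family responded to IL-1β was first examined in NT cells, where a gene was called when its edgeR quasi-likelihood adjusted p was below 0.05 and its change exceeded 1.5-fold. IL-1β raised the 4 ligands, the 3 receptor chains and the 3 inhibitors, all 10 of them at 4 h. The ligands peaked at 2 or 4 h and then fell, with all but Il11 still called higher at 24 h. Il6st was called higher from 2 h and Osmr from 4 h, and both stayed up. Lifr rose at 1 h and again from 4 h. The inhibitors divided between an early pair and Socs3, which fell at 1 h and was highest at 24 h. Of 50 member and time pairs, 39 were called higher and 1 lower, with 4 members higher at 1 h, 8 at 2 h, 10 at 4 h, 9 at 8 h and 8 at 24 h. With limma on log2(TPM + 1) the members higher numbered 2, 6, 9, 9 and 7 at these times, without Il6st at 2 and 4 h. The share of all tested genes called higher was 9.22% at 1 h, 13% at 2 h, 16.3% at 4 h, 11.8% at 8 h and 6.61% at 24 h, and 9.45% were called lower at 1 h. Each time point was set against the same 3 libraries at 0 h, and the labels do not say that the replicates were separate cultures, so p-values measure the spread between these libraries, which may be technical.

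**Figure D1:**
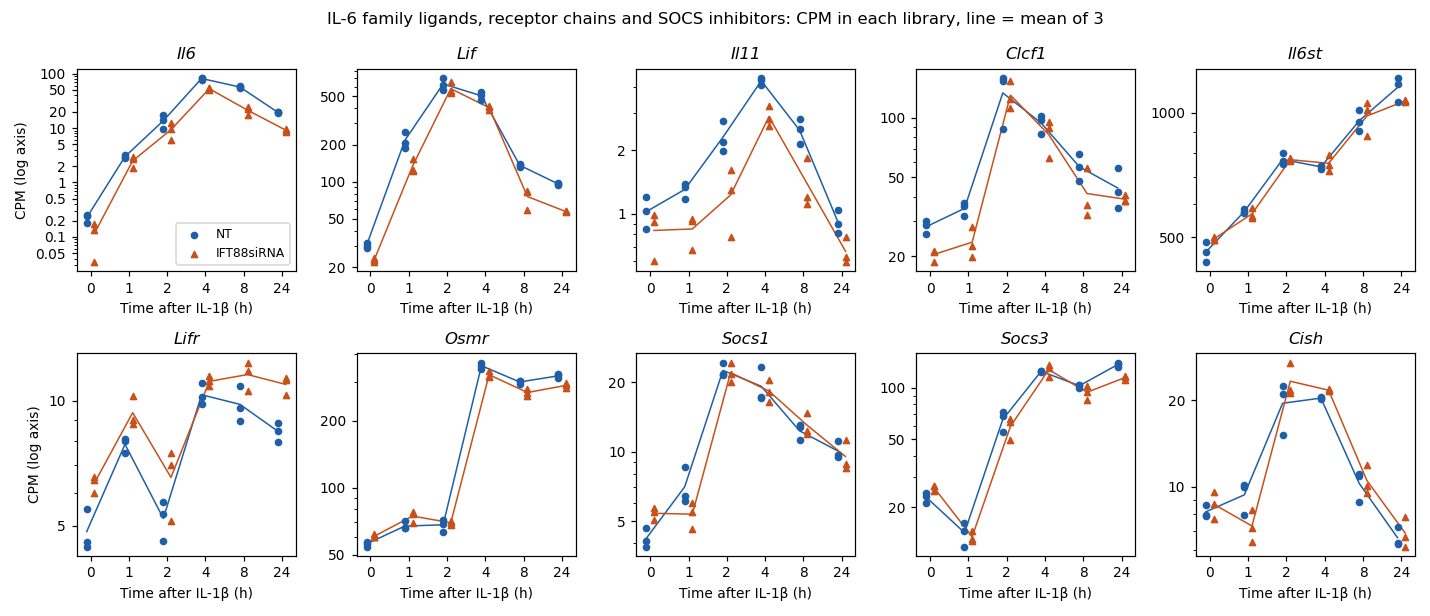
CPM (log axis) of the 10 genes in each of the 36 libraries, by time after IL-1β, with circles for NT, triangles for IFT88siRNA and a line through the mean of 3 libraries. The ligands peak at 2 or 4 h, Osmr steps up between 2 and 4 h, and the IFT88siRNA points of Il6 and Lif lie below all NT points at 8 and 24 h.

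Il6 (chr5:30013114-30019981, GRCm38), the founding cytokine of the family, had the largest change of the 10. NT libraries held 0.254, 0.247 and 0.177 CPM at 0 h, from 4 to 6 counts each. They held 2.99, 2.78 and 3.20 CPM at 1 h, then 13.9, 9.62 and 17.4 CPM at 2 h. The peak was at 4 h, with 77.4, 83.7 and 82.3 CPM, and was followed by 54.6, 58.4 and 56.9 CPM at 8 h and 19.3, 18.8 and 19.6 CPM at 24 h. No neighbours in this order overlapped, and every library after IL-1β exceeded every library at 0 h. The log2 change from 0 h was 8.46 at 4 h (SE 0.20, adjusted p = 1.57e-21 by edgeR), and Il6 was still 82.8-fold higher at 24 h (log2 6.37, SE 0.24). These SEs are too small for a reference of 4 to 6 counts per library. Over all settings tried, the 4 h change was 6.767 to 8.575.

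Lif (chr11:4257557-4272514), which sustains stem cell states and drives acute-phase responses, rose faster. NT libraries held 30.1, 31.7 and 28.8 CPM at 0 h and 209, 188 and 257 CPM at 1 h. At 2 h they held 617, 566 and 709 CPM, a log2 change of 4.38 (SE 0.10, adjusted p = 1.58e-21), and at 4 h 463, 512 and 538 CPM. Between 4 and 8 h Lif fell by 1.89 on the log2 scale (SE 0.09, adjusted p = 5.15e-15) to 132, 140 and 137 CPM, and by 24 h it stood at 98.1, 94.1 and 96.5 CPM. At each time the 3 libraries lay apart from those of the next level, and 24 h remained above 0 h (3.19-fold).

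Clcf1 (chr19:4214238-4223490), a cytokine that signals through gp130, Lifr and the ciliary neurotrophic factor receptor, followed a similar but smaller course. NT libraries held 30.1, 25.8 and 28.6 CPM at 0 h and 154, 88.1 and 160 CPM at 2 h, a 4.74-fold increase (log2 2.25, SE 0.17, adjusted p = 4.91e-11). The 2 h libraries were uneven, since replicate 2 lay below all of 4 h but 1. At 24 h the change was log2 0.66 (adjusted p = 0.00416), and without replicate 3 it was 0.47 and no longer called. Exons of Clcf1 share positions with a second protein-coding gene of the GENCODE annotation on the same strand, AC109138.7, which had no row in the count table, so the source of some of its reads is uncertain.

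Il11 (chr7:4772373-4782859, minus strand), a cytokine of bone and fibroblast responses, was the least abundant ligand after IL-1β, while at 0 h Il6 was lower. NT libraries held 0.845, 1.03 and 1.20 CPM at 0 h and 4.31, 4.09 and 4.41 CPM at 4 h. The 4 h libraries lay above all others, at 4.18-fold of 0 h (log2 2.06, SE 0.18, adjusted p = 2.91e-10). At 24 h the NT libraries, with 1.05, 0.892 and 0.813 CPM, overlapped those of 0 h (log2 -0.16, 95% interval -0.61 to 0.30).

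Among the receptor chains, Il6st (chr13:112464070-112510086), the shared chain, held 460, 486 and 436 CPM in NT libraries at 0 h and 1215, 1174 and 1063 CPM at 24 h. It passed the test at 2 h (log2 0.74, SE 0.05) and was highest at 24 h (log2 1.32, SE 0.05, adjusted p = 9.52e-17), with no overlap between neighbouring levels. The calls at 2 and 4 h were lost with limma on log2(TPM + 1). Over all settings tried the change was as low as 0.55 at 2 h and 0.45 at 4 h.

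Osmr (chr15:6813577-6874969, minus strand), the oncostatin M receptor chain, barely moved before it stepped up between 2 and 4 h. NT libraries held 56.0, 57.2 and 54.4 CPM at 0 h and 68.9, 63.5 and 71.9 CPM at 2 h, a change of log2 0.28 that was below the fold threshold. At 4 h they held 343, 365 and 353 CPM, 5.24-fold of 2 h (log2 2.39, SE 0.05, adjusted p = 3.8e-22). The later levels stayed near this one, with 301, 303 and 293 CPM at 8 h and 311, 325 and 320 CPM at 24 h.

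Lifr (chr15:7090614-7197489), the LIF receptor chain, was called higher at 1 h, not at 2 h, and again from 4 h on. NT libraries held 4.56, 4.45 and 5.5 CPM at 0 h, 7.48, 8.07 and 8.02 CPM at 1 h and 4.59, 5.70 and 5.33 CPM at 2 h. The 2 h libraries overlapped those of 0 h and lay below those of 1 h. At 4 h Lifr held 9.80, 11.0 and 10.2 CPM (log2 1.11 against 0 h, SE 0.11, adjusted p = 2.07e-09). The fall from 1 to 2 h was called in NT (log2 -0.59, adjusted p = 0.000109), but without replicate 1 its value of -0.55 was below the fold threshold. The rise at 1 h (log2 0.70, adjusted p = 8.99e-06) was not called by limma on TPM, where it was as low as 0.42, and the fall was not called with log2(TPM + 1).

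The inhibitors differed in order. Socs1 (chr16:10782240-10785536, minus strand) held 4.10, 3.88 and 4.66 CPM in NT libraries at 0 h and 24.3, 21.6 and 21.9 CPM at 2 h, a 5.34-fold rise (log2 2.42, SE 0.13, adjusted p = 4.16e-14). It fell between 4 and 8 h (log2 -0.64, SE 0.11, adjusted p = 3.57e-05), a call lost without replicate 3 (-0.53), and at 24 h it held 11.1, 9.48 and 9.65 CPM, above all 0 h libraries. It was already higher at 1 h (log2 0.73, adjusted p = 0.000288), a call lost without replicate 1 (0.55) and with limma on log2(TPM + 1). Over all settings tried this rise was as low as 0.32.

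Socs3 (chr11:117966079-117970047, minus strand), the main inhibitor of gp130, first fell. NT libraries held 21.3, 24.4 and 23.2 CPM at 0 h and 14.6, 11.8 and 16.2 CPM at 1 h (log2 -0.70, SE 0.10, adjusted p = 3.37e-06), without overlap. Without replicate 2 this fall was -0.52 and below the fold threshold. It then rose to 68.4, 55.0 and 72.5 CPM at 2 h, 125, 126 and 124 CPM at 4 h, and 138, 140 and 131 CPM at 24 h. The 24 h libraries lay above all others (log2 2.57 against 0 h, SE 0.08, adjusted p = 3.11e-18), the only inhibitor of the 3 with its highest level there.

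Cish (chr9:107296026-107302784) held 7.90, 8.62 and 7.98 CPM in NT libraries at 0 h, 21.0, 15.1 and 22.4 CPM at 2 h and 20.3, 20.1 and 20.5 CPM at 4 h. It was called higher at 2 h (log2 1.25, SE 0.12) and 4 h (log2 1.32, SE 0.12, adjusted p = 8.26e-10). By 24 h, with 6.36, 6.32 and 7.22 CPM, it lay below all 0 h libraries, at a change that was not called (log2 -0.30, adjusted p = 0.0735). Cish shares exon positions with 2 annotated transcripts of the opposite strand, and reads were counted without strand, but these had 0 and 171 counts in all 36 libraries together.

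When each step between neighbouring times was tested in NT, 21 of 40 member steps were called. From 1 to 2 h, 7 members rose and Lifr fell, where 6.08% of all genes rose and 5.8% fell. From 2 to 4 h, 5 rose (Il6, Il11, Lifr, Osmr and Socs3), where 16.6% of all genes rose and 10.5% fell. From 4 to 8 h, 5 fell (Lif, Il11, Clcf1, Socs1 and Cish), where 7.01% of all genes rose and 9.93% fell. From 8 to 24 h, 3 fell (Il6, Il11 and Cish), where 3.15% of all genes rose and 10.2% fell. Beside the falls of Lifr and Socs1 given above, the call of Il11 from 1 to 2 h was lost without replicate 3 (0.61) and that of Cish from 8 to 24 h without replicate 2. In the last step the changes of Il6st and Socs3 were log2 0.26 and 0.41, both with an adjusted p below 0.05 and a change under 1.5-fold.

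In IFT88siRNA cells IL-1β raised 36 of 50 member and time pairs and lowered 1, Socs3 at 1 h. Members called higher numbered 2 at 1 h, 7 at 2 h, 10 at 4 h, 9 at 8 h and 8 at 24 h. Of all tested genes 6.82%, 12.4%, 16%, 10.5% and 6.36% were higher at these times in turn, and 8.25% were lower at 1 h. The Il11 call at 8 h was lost without replicate 1 (0.61) or 3 (0.59), and that of Il6st at 4 h without replicate 2 (0.57). Il6 changed by log2 8.77 at 4 h (95% interval 8.18 to 9.36), a fold that rests on 1 to 5 counts per library at 0 h. That interval is too narrow for so few counts, and over all settings tried the change was 6.445 to 9.146. Socs3 fell at 1 h from 24.8, 26.8 and 26.8 CPM to 12.8, 13.01 and 14.6 CPM (log2 -0.96, SE 0.10, adjusted p = 4.28e-08), and at 24 h it held 111, 116 and 117 CPM. Unlike in NT, its highest mean was at 4 h (127.4 CPM, SD 10.65), where the libraries overlapped those of 24 h.

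**Figure D2:**
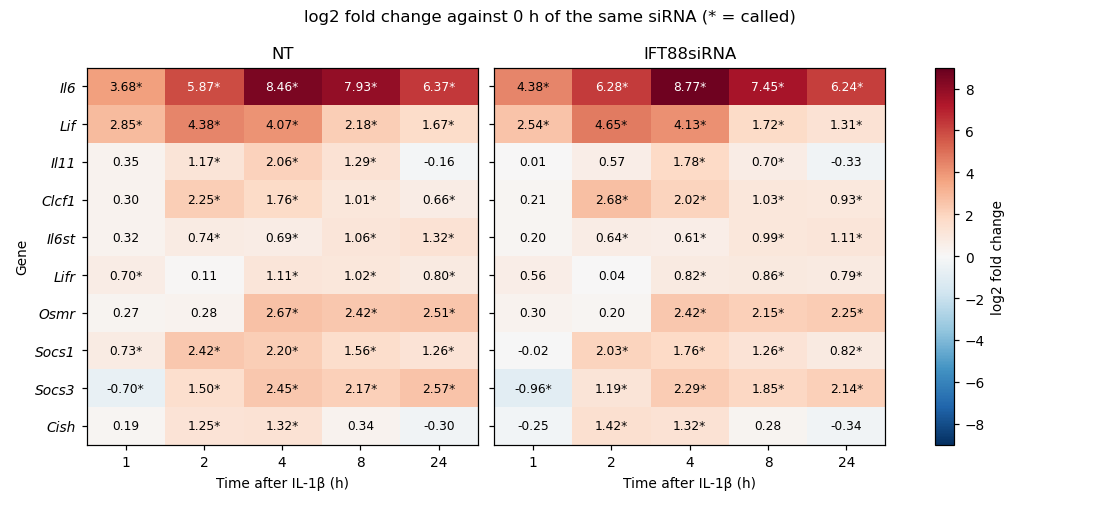
Log2 fold change of each gene (rows) at each time after IL-1β (columns) against the 0 h libraries of the same siRNA, for NT on the left and IFT88siRNA on the right, with an asterisk where the change was called. All 10 genes are called at 4 h in both, Il6 has the largest values (8.46 and 8.77 at 4 h), and Socs3 at 1 h is the called decrease in each (-0.70 and -0.96).

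Whether IFT88siRNA changed the size of the IL-1β response was tested as the change from 0 h in IFT88siRNA minus that in NT, in 1 edgeR fit of all 36 libraries. Of 50 pairs, 0 were called by edgeR, against 0.598% of all genes at 1 h, 0.245% at 2 h, 0.311% at 4 h, 0.275% at 8 h and 0.132% at 24 h. In these pairs 14 had an unadjusted p below 0.05, DESeq2 called 1 (Socs1 at 1 h) and limma on log2(TPM + 1) called 1 (Il6 at 8 h). Osmr had an adjusted p below 0.05 at 4 h (log2 -0.25, adjusted p = 0.0446) and 8 h (log2 -0.27, adjusted p = 0.027), with changes under 1.5-fold.

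Socs1 at 1 h came closest to a call. In NT it went from 4.10, 3.88 and 4.66 CPM at 0 h to 8.60, 6.12 and 6.40 CPM at 1 h, whereas in IFT88siRNA it held 5.05, 5.70 and 5.47 CPM at 0 h and 5.47, 4.64 and 5.97 CPM at 1 h. The NT libraries did not overlap between these times and the IFT88siRNA libraries did. The difference in response was log2 -0.75 (SE 0.22, adjusted p = 0.0592), and it was called without replicate 3 (-0.96, adjusted p = 0.038). For Il6 this contrast could show little, since its SE was 0.86 to 1.23 at the 5 times.

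IFT88siRNA and NT cells were next compared directly at each time point. The ligands Il6, Lif and Il11 were lower in IFT88siRNA at 1 or more times. The ligand Clcf1, the receptor chains and the inhibitors were not called, and whether the classes differ was not tested. Il6 was lower at 4, 8 and 24 h, Lif at 1, 8 and 24 h, and Il11 at 8 h. In all, 7 of 59 pairs were called lower and 0 higher by edgeR, and DESeq2 and limma on log2(TPM + 1) also called 0 higher. Members called lower numbered 1 at 1 h, 1 at 4 h, 3 at 8 h and 2 at 24 h. Of all tested genes 1.56% were lower at 0 h, 2.47% at 1 h, 0.462% at 2 h, 0.399% at 4 h, 0.613% at 8 h and 0.598% at 24 h. The shares called higher at these times, in turn, were 0.674%, 0.182%, 0.0339%, 0.0338%, 0.0791% and 0.552%. A further 10 pairs, among them pairs of Clcf1, Lifr and all 3 inhibitors, had an adjusted p below 0.05 and a change under 1.5-fold, and 32 of the 59 had an unadjusted p below 0.05.

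Il6 had the largest difference. At 0 h, where it was too low to be tested, NT libraries held 4 to 6 counts and IFT88siRNA libraries 1 to 5. At 1 h IFT88siRNA libraries held 1.85, 2.88 and 2.76 CPM, and at 2 h 9.40, 6.14 and 12.4 CPM. Both sets overlapped those of NT, with log2 differences of -0.26 (SE 0.18) and -0.54 (SE 0.23) that were not called.

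At 4 h IFT88siRNA libraries held 54.2, 49.3 and 54.7 CPM of Il6, all below the NT libraries (log2 -0.63, SE 0.06, adjusted p = 1.43e-05). This value lay near the fold threshold, and without replicate 2 it was -0.55 and not called. At 8 h they held 24.04, 17.3 and 22.4 CPM, 37% of NT (log2 -1.43, SE 0.10, adjusted p = 3.84e-05). At 24 h they held 8.63, 9.48 and 9.25 CPM, 47.5% of NT (log2 -1.07, SE 0.07, adjusted p = 3.23e-07). The IFT88siRNA and NT libraries did not overlap at any of these 3 times.

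Lif was lower from the start. At 0 h IFT88siRNA libraries held 22.3, 23.0 and 23.8 CPM, all below NT, at a difference under 1.5-fold (log2 -0.39, SE 0.06, adjusted p = 5.25e-05). At 1 h they held 124, 126 and 153 CPM, again all below NT (log2 -0.71, SE 0.09, adjusted p = 8.31e-05). At the 2 h peak, with 547, 531 and 654 CPM, the groups overlapped (log2 -0.13, 95% interval -0.32 to 0.06).

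The groups separated again as Lif fell. At 4 h IFT88siRNA libraries held 407, 383 and 420 CPM (log2 -0.33, SE 0.06, adjusted p = 0.00502), under the fold threshold. At 8 h they held 83.2, 59.2 and 84.9 CPM (log2 -0.87, SE 0.11, adjusted p = 0.00191), a call lost with limma on log2(TPM + 1) (-0.86, adjusted p = 0.0973). At 24 h they held 57.5, 57.4 and 56.6 CPM, 59.2% of NT (log2 -0.76, SE 0.04, adjusted p = 8.53e-08). The difference was thus present before IL-1β and not detectable at the peak. At 8 and 24 h, but not at 4 h, it was larger in these values than before IL-1β. Neither its change from 0 h at any time nor that from 1 to 2 h (log2 0.57, edgeR adjusted p = 0.076) was called.

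Il11 and Clcf1 leaned the same way with less certainty. Il11 at 8 h held 2.15, 2.51 and 2.82 CPM in NT and 1.85, 1.11 and 1.21 CPM in IFT88siRNA, without overlap (log2 -0.89, SE 0.23, adjusted p = 0.0498). This call was lost whichever of the 3 replicates was left out (-0.72 to -1.21) and with DESeq2. At 2 h the Il11 difference was log2 -0.90 (SE 0.26, adjusted p = 0.091) and not called.

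Clcf1 at 0 h held 21.3, 21.1 and 18.7 CPM in IFT88siRNA, below all NT libraries (log2 -0.47, SE 0.07, adjusted p = 3.92e-05), and at 1 h 19.8, 28.2 and 22.5 CPM, also below (log2 -0.57, SE 0.10, adjusted p = 0.000793). Both changes were under 1.5-fold. Clcf1 was called lower at 1 h without replicate 2 (-0.79) and at 8 h without replicate 3 (-0.76). At 2 h its libraries overlapped (log2 -0.04, 95% interval -0.43 to 0.35).

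**Figure D3:**
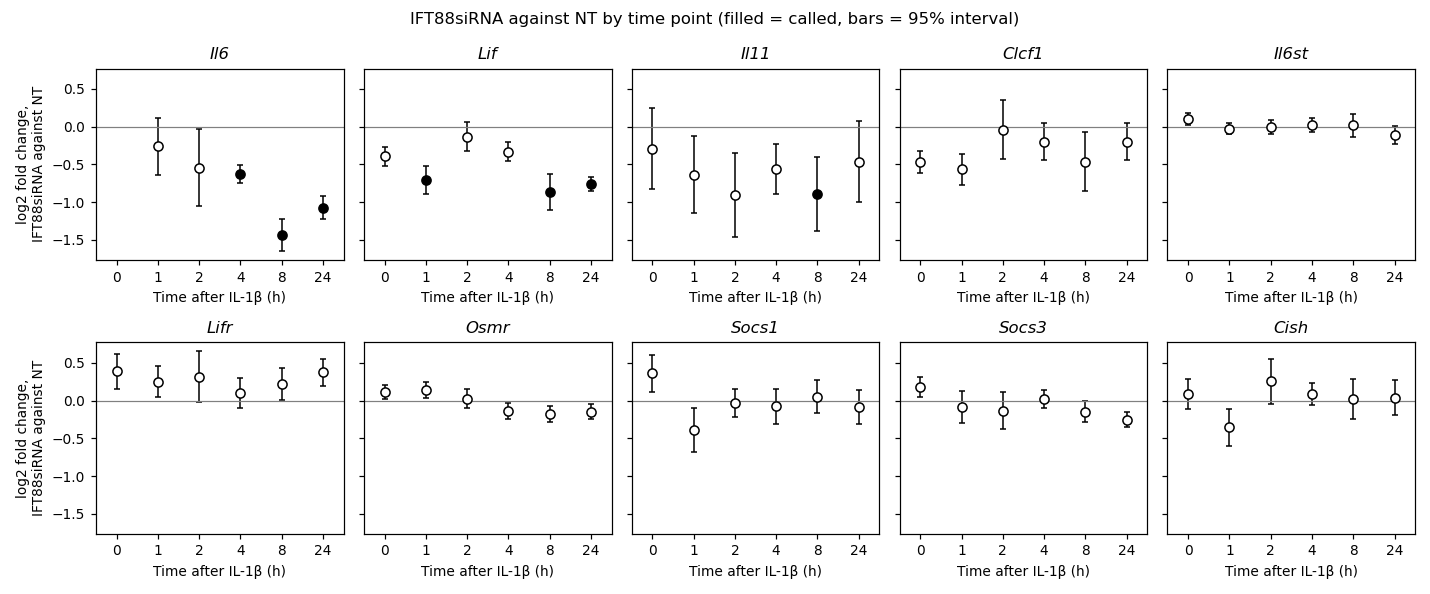
Log2 fold change of IFT88siRNA against NT for each gene at each time after IL-1β, with 95% intervals from edgeR and filled points where the difference was called. The 7 filled points are Il6 at 4, 8 and 24 h, Lif at 1, 8 and 24 h and Il11 at 8 h, and all lie below 0.

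The receptor chains differed by less than 1.5-fold at every time. Il6st gave intervals close to 0, such as -0.10 to 0.09 at 2 h and -0.13 to 0.17 at 8 h on the log2 scale. Osmr ranged from log2 0.14 at 1 h to -0.17 at 8 h, none with an adjusted p below 0.05.

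Lifr had edgeR values above 0 at all 6 times, while at 4 h its value turned with limma on TPM (0.10 by edgeR, down to -0.13). At 0 h it held 5.999, 6.54 and 6.46 CPM in IFT88siRNA, above all NT libraries (log2 0.39, SE 0.11, adjusted p = 0.0157). At 24 h it held 11.2, 11.3 and 10.3 CPM against 8.86, 8.48 and 7.96 CPM in NT, again without overlap (log2 0.37, SE 0.08, adjusted p = 0.0104). Neither change reached 1.5-fold.

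Among the inhibitors, Socs3 at 24 h held 111, 116 and 117 CPM in IFT88siRNA against 138, 140 and 131 CPM in NT. The groups did not overlap, and the difference was under 1.5-fold (log2 -0.25, SE 0.05, adjusted p = 0.00267). At 0 h the differences were log2 0.36 for Socs1 (adjusted p = 0.031) and 0.19 for Socs3 (adjusted p = 0.0432), and Cish gave -0.36 at 1 h (adjusted p = 0.0433), all under the fold threshold.

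A mean difference over the 6 time points and the change of the difference between neighbouring times were added after these values had been seen. In the mean, Il6 (log2 -0.81, SE 0.18, adjusted p = 0.000356) and Il11 (log2 -0.62, SE 0.09, adjusted p = 1.66e-06) were called lower, where 1.8% of all genes were, and Il11 was -0.54 and not called without replicate 2. Lif (log2 -0.52), Clcf1 (-0.32) and Lifr (0.28) had an adjusted p below 0.05 and a change under 1.5-fold. All 6 time points weigh equally in this mean. At 0 h the Il6 part rests on 4 to 6 counts per NT library and 1 to 5 per IFT88siRNA library. Of 40 changes of the difference between neighbouring times, 1 was called, that of Il6 from 4 to 8 h (log2 -0.80, SE 0.17, adjusted p = 0.0317). Over all genes 0.0419%, 0.012%, 0.0898% and 0.126% of such changes were called from 1 to 2, 2 to 4, 4 to 8 and 8 to 24 h. The Il6 call was lost whichever of the 3 replicates was left out (-0.71 to -0.86).

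Since TPM values are scaled by transcript length, they were used to set the levels of different genes side by side. In NT the summed TPM of the 4 ligands was 45.6 ± 2.18 (SD, n = 3) at 0 h, 410 ± 73.7 at 2 h, 458 ± 24.7 at 4 h and 134 ± 9.40 at 24 h. In IFT88siRNA it was 34.8 ± 0.959, 374 ± 46.5, 348 ± 26.3 and 85.9 ± 2.87 at the same times. The 2 h libraries overlapped and those of the other 3 times did not.

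The leading ligand changed over the time course. In NT at 0 h, Clcf1 made up 52.3 ± 4.999% of the ligand TPM and Lif 43.9 ± 5.01%, with overlapping libraries. Lif then led at 1 h with 77.7 ± 2.43%, at 2 h with 71.4 ± 3.33% and at 4 h with 50.4 ± 0.612%, when Il6 held 34.2 ± 1.14%. Il6 led at 8 h with 50.9 ± 0.990%, and Lif again at 24 h with 40.1 ± 2.68%. Il11 was never above 2.88% in the NT means.

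In IFT88siRNA at 8 h, Il6 made up 38.8 ± 4.33%, Lif 31.7 ± 1.87% and Clcf1 28.3 ± 2.90% of the ligand TPM. At 24 h Il6 held 23.5 ± 0.861% in IFT88siRNA and 31.6 ± 2.11% in NT, and Clcf1 37.1 ± 2.93% and 27.6 ± 4.38%. The differences in shares were not tested.

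**Figure D4:**
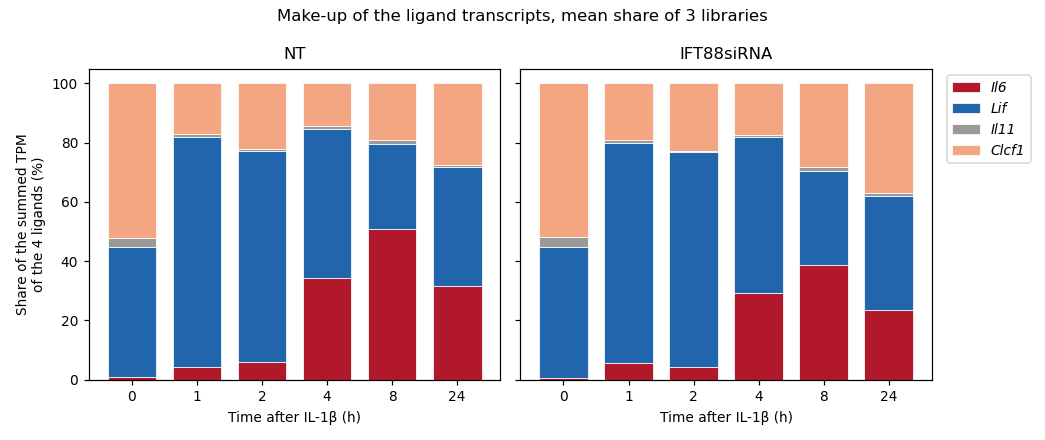
Share of each ligand in the summed TPM of the 4 ligands (percent, mean of 3 libraries), by time after IL-1β, for NT on the left and IFT88siRNA on the right. Clcf1 and Lif make up most of the bars at 0 h, Lif leads at 1, 2 and 4 h, and Il6 reaches 50.9% in NT and 38.8% in IFT88siRNA at 8 h.

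Of the 3 receptor chains, Il6st made up 84.6 ± 1.15% of their summed TPM in NT at 0 h and 61.5 ± 0.260% at 4 h, when Osmr held 37.3 ± 0.566%. Lifr stayed at or below 1.56% in the NT means. Of the 3 inhibitors, Socs3 went from 53.2 ± 1.80% at 0 h to 33.7 ± 1.92% at 1 h, where Socs1 held 43.9 ± 4.13%, and to 79.8 ± 1.04% at 24 h.

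The rest of the pathway was examined through 5 gene lists. Of 8 other IL-6 family ligands, 3 were tested, and Osm, Il27, Ebi3, Il31 and Ctf2 reached at most 11 counts in any library. Ctf1, the cytokine cardiotrophin-1, fell at 4 h (log2 -0.84) and 24 h (log2 -0.99). The lists' median changes in NT at 4 h were 0.08 for these ligands, -0.05 for the receptors, 1.30 for the JAKs and STATs, 0.33 for the inhibitors and 2.06 for the STAT3 targets, against -0.02 over all genes.

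Among 6 other receptors of the family, Il11ra1, the ligand-binding receptor of Il11, rose at 1 h in NT from a mean of 54.2 to 99.7 CPM (log2 0.88, SE 0.05) and was below 0 h at 8 h with 35.5 CPM (log2 -0.61, SE 0.05). Il31ra, a receptor of interleukin-31, rose at 8 h from 0.0839 to 1.32 CPM (log2 3.86, SE 0.60). Il11ra2, which has near-identical copies in the table, and Cntfr were too low for the NT fit, so that 4 of 6 were tested.

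Of 11 JAK kinases and STAT factors, 10 were tested and 8 rose at 4 h in NT, against 7 in IFT88siRNA, where 16.3% and 16% of all genes rose. Stat5a (log2 2.12, SE 0.07), Stat2 (2.096, SE 0.12) and the kinase gene Jak2 (1.82, SE 0.04) were among those that rose in NT. Stat3 itself was higher in NT by log2 0.73 at 1 h, 0.70 at 2 h, 1.64 at 4 h, 1.31 at 8 h and 1.14 at 24 h, each change being called. Of 14 other JAK-STAT inhibitors, 6 rose and 2 fell at 4 h in NT, where 16.3% of all genes rose and 12.4% fell, led by Socs2 (log2 1.49, SE 0.07) and Socs5 (1.01, SE 0.05).

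Of 24 genes known as STAT3 targets, 22 were tested in NT. At 4 h 17 rose and 1 fell, beside the same shares of all genes, and at 24 h 16 rose and 1 fell, where 6.61% of all genes rose and 9.71% fell. Saa3, an acute-phase serum amyloid, had the largest change, from a mean of 0.113 CPM at 0 h to 1008 CPM at 24 h (log2 13.05, SE 0.20). Lcn2, an acute-phase iron-carrier binding protein, went from a mean of 0.470 CPM at 0 h to 1199 CPM at 24 h (log2 11.3, SE 0.17). The SEs of Saa3 and Lcn2 are too small for 0 h levels of so few counts. Bcl3, an NF-κB cofactor, went from 2.14 to 50.6 CPM (log2 4.56, SE 0.12). Many of these genes, among them Lcn2, Icam1 and Bcl3, are also known as NF-κB targets, so that the list does not separate the pathways.

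Between IFT88siRNA and NT, edgeR called 0 of 60 pairs for the JAKs and STATs, 0 of 84 for the other inhibitors, 0 of 18 for the other ligands and 0 of 16 for the other receptors. Unadjusted p-values below 0.05 numbered 22, 16, 3 and 11, and DESeq2 and limma on log2(TPM + 1) each called 0. In the STAT3 target list 7 of 127 pairs were lower and 2 higher, where by time 0.399% to 2.47% of all genes were lower and 0.0338% to 0.674% higher. In that list 72 pairs had an unadjusted p below 0.05, DESeq2 called 8 and limma 6. Icam1, an adhesion molecule, was lower at 1 h (mean 11.7 against 36.1 CPM, log2 -1.64, SE 0.12, adjusted p = 1.94e-07), 2 h (log2 -1.03), 4 h (log2 -0.81) and 8 h (log2 -0.80). Saa3 (mean 0.343 against 1.11 CPM, a low level) and Bcl3 (10.5 against 16.8 CPM) were lower at 1 h, and Fos at 4 h (29.3 against 44.2 CPM). Serpina3n, also low, was higher at 1 h (2.70 against 1.47 CPM, log2 0.85) and 2 h (log2 0.97). In the contrast of IL-1β responses edgeR called 1 gene of these lists, Icam1 at 1 h (log2 -1.42, SE 0.25, adjusted p = 0.000696).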

How the data were processed

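Counts and TPM of 36 polyA libraries (12 conditions, 3 libraries each) were used. The deposited counts per gene were made by the authors with HISAT2 2.1.0 (GRCm38) and featureCounts of Subread 1.6.3 with Ensembl annotation, without strand. The deposited TPM values were made by the authors with Salmon 0.9.1, with correction for GC bias. Libraries were spread over lanes together, and no library was assigned to a lane. Groups came from the sample titles. The siRNA concentration in the labels differs from that in the study's methods, and the label's value is given. The 10 members and the gene lists were chosen with earlier results of these data known.

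Counts were tested with edgeR 4.0.16 (R 4.3.3): TMM scaling, filterByExpr, glmQLFit and glmQLFTest, two-sided, with Benjamini-Hochberg adjustment over all genes tested. A gene was called at an adjusted p under 0.05 with a change over 1.5-fold. IFT88siRNA and NT were compared within each time point (6 libraries), IL-1β times with 0 h within each siRNA (18 libraries), and the responses in 1 fit of 36 libraries. An SE is the log2 fold change divided by the root of F. For a large change from a reference of few counts it is too small, and an interval based on it is too narrow. CPM used TMM-scaled totals of all 36 libraries. Totals of 19337022 to 38304127 counts mean that a gene at 0.2 CPM rests on a handful of reads.

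Named genes were all 10 members, Ift88, at most 4 called genes with the largest change per list and comparison, and the 2 genes most like each member over the 12 condition means. Some list genes are not reported here. Other list genes named by count or level were chosen after their values were seen. Alternatives were DESeq2 1.42.0, limma 3.58.1 on log2(TPM + 1) or log2(TPM + 0.1) with and without a filter of TPM at least 1 in 3 libraries, other scalings, no filter on low counts, no fold threshold, a replicate block, other libraries in the fit and each replicate left out. Fits were tested on simulated data. Member positions came from GENCODE vM21 (GRCm38).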

Additional observations from a re-analysis of the deposited data

Results flagged for a closer look

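In edgeR's test of the change in the difference itself, a test added after the values had been seen, the difference between IFT88siRNA and NT in Il6 was larger at 8 h than at 4 h. The call was lost whichever replicate was left out and in each TPM setting, with an adjusted p of up to 0.731. NT libraries went from 77.4, 83.7 and 82.3 CPM at 4 h to 54.6, 58.4 and 56.9 CPM at 8 h, and IFT88siRNA libraries from 54.2, 49.3 and 54.7 CPM to 24.04, 17.3 and 22.4 CPM. The change in the difference was -0.80 on the log2 scale (SE 0.17, edgeR adjusted p = 0.0317 in the fit of 36 libraries), and every IFT88siRNA library lay below every NT library at both times. Lif changed by -0.53 over the same step (SE 0.14, adjusted p = 0.15) and was not called.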

How the results depend on the processing

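Of 108 called member values, 0 changed sign under any alternative and 81 kept their call throughout. Of 191 values not called, 41 were called under at least 1 alternative and 63 changed sign under at least 1. Upper-quartile scaling moved the median of all genes by up to 0.121 on the log2 scale. Counts of calls between IFT88siRNA and NT (7) became 2 with limma on log2(TPM + 1) without a TPM filter, 17 without a fold threshold, and 6 to 7 with a replicate left out. Without a TPM filter limma lost Il6 at 8 h (-1.39, adjusted p = 0.0505) and Lif at 1, 8 and 24 h. For different IL-1β responses (0) the count was 1 with DESeq2, without a filter on low counts, with a replicate block, with log2(TPM + 1), with or without its filter, and with the libraries of the times compared alone, 2 without a fold threshold, and 0 to 1 with a replicate left out. Neighbouring times in NT (21) became 32 without a fold threshold and 15 with log2(TPM + 1). Over the alternatives with a fold threshold, IL-1β in NT (40) gave 34 to 40 and in IFT88siRNA (37) 32 to 37. For changes of the siRNA difference between neighbouring times (1) the count was 2 without a filter on low counts, 0 with each TPM setting and 0 to 0 with a replicate left out. For the mean siRNA difference (2) it was 1 with log2(TPM + 1), with or without its filter, 5 without a fold threshold and 1 to 2 with a replicate left out. The cause was not tested where the construction of the alternative does not show it.

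The replicate numbers did not pair the samples: deviations of same-numbered libraries of the 2 siRNAs correlated at -0.133 to 0.223, above 0.1 in 2 of 18 pairs, and the own number fitted best in 5 of 18. With the replicate block the counts were 8 between IFT88siRNA and NT, 40 for IL-1β in NT, 37 in IFT88siRNA, 1 for different responses (Socs1 at 1 h) and 21 between neighbouring times. Depth limited Il6 at 0 h (1 to 6 counts) and Il11 (at most 4.41 CPM).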

Other observations

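For each member, the 2 genes with the most similar course were found from Pearson's r of log2 CPM over the 12 condition means, among 14253 other genes. The points share libraries, time course and scaling, so r is a description. Il6 was most like Acod1 (r = 0.985) and Neurl3 (0.983), Lif like Nipal1 (0.985) and Mir155hg (0.984), Il11 like Gng4 and Sike1 (both 0.974), and Clcf1 like Tank (0.982) and Aff1 (0.979). Il6st was most like Gm2223 (0.964) and Aebp1 (0.955), Lifr like Rspo3 (0.937) and Mdfic (0.921), and Osmr like Gm9992 (0.993) and Ttc39c (0.991). Socs1 was most like Rhoj (0.988) and Tsc22d1 (0.975), Socs3 like Smim3 (0.972) and Faim (0.969), and Cish like Wnt11 (0.978) and Eif2ak4 (0.975).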
